A study of Mus musculus with 10 samples.

Results

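Of the 24015 genes in each count table, 8 are described here: the neurofilament genes Nefl, Nefm and Nefh, and the neural markers Tubb3, Map2, Pax6, Sox1 and Nes. They were listed by name with their levels in these cultures already known, so their levels and fold changes are a description and carry no test. All 8 passed the filter on low counts that left 14220 genes.

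The cells were mouse embryonic stem cells, which derive from the inner cell mass of the blastocyst, and all of them carried a reporter of the Wnt/β-catenin pathway. The medium called 2i contains inhibitors of the kinase GSK3 (3 µM) and of the ERK pathway (1 µM). Every group grew with leukaemia inhibitory factor (LIF) on gelatin and was split every 48 h. The 5 groups of 2 libraries each were serum (the starting culture), first 2i (5 to 6 passages in 2i), long 2i (more than 13 passages in 2i), serum return (more than 13 passages in 2i, then 6 in serum) and second 2i (13 passages in 2i, 6 in serum, then 4 to 5 in 2i). The labels do not say that second 2i grew from the serum return sampled here, nor that the libraries of a group came from separate cultures, so the p-values below measure the spread between libraries, which may be technical.

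Neurofilaments are the intermediate filaments of axons. They are built from a light, a medium and a heavy chain, encoded by Nefl, Nefm and Nefh, and in rodents the light chain is needed for the other chains to assemble into filaments. Tubb3 encodes class III β-tubulin of neurons, Map2 a microtubule-associated protein of dendrites, and Nes the intermediate filament protein nestin of neural progenitors, while Sox1 and Pax6 are transcription factors of the early neural plate and of neural progenitors. In mouse embryonic stem cells GSK3 inhibition stabilises β-catenin, and ERK signalling is needed for exit from self-renewal, so 2i with LIF is known for holding the cells in a naive pluripotent state in which neural genes are usually low.

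Gene counts totalled 16809070 to 27766338 per library. Levels are given as CPM, the count scaled to a library's total over the genes tested and its TMM factor, with mean ± SD and n = 2 libraries a group. The serum and serum return libraries lay on 1 side of the first principal component (65.8% of the variance) and all 6 libraries in 2i on the other. The serum return libraries differed more from each other than those of any other group. Their chi-square per degree of freedom over tested genes was 25.5, against 3.47 to 4.79 in the other groups. The fit shared its estimate of the spread over all groups, so standard errors (SE) and p-values of contrasts with serum return may be too small. The embryonic stem cell marker Pou5f1 was at 919 to 1340.3 CPM and Nanog at 719.7 to 1292 CPM as group means. Since these are bulk libraries, fewer cells of a type and less RNA per cell cannot be told apart.

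Nefl and Nefm were both highest in long 2i and lowest in serum. Nefl was at 1.29 and 1.51 CPM in serum, 39.6 and 39.8 in first 2i, 137 and 140.2 in long 2i, 1.83 and 2.47 after the return to serum, and 62.5 and 68.5 in second 2i. All 5 groups were separate, in the order serum, serum return, first 2i, second 2i and long 2i. Nefm was at 0.335 and 0.156 CPM in serum, 4.4 and 3.7 in first 2i, 131 and 123 in long 2i, 0.287 and 0.465 after the return to serum, and 17.9 and 17.2 in second 2i. Its groups followed the same order, except that serum return and serum overlapped. Nefm rested on 10 counts over both serum libraries and 4540 over both long 2i libraries.

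The gene for the light chain was high already in first 2i, and the gene for the medium chain was at its high level only after more passages. In first 2i against serum the fitted log2 fold change of Nefl was 4.82 (SE 0.13), a 28.3-fold difference, and that of Nefm 3.99 (SE 0.29). In long 2i against first 2i Nefl was 3.49-fold higher (log2 1.8, SE 0.071) and Nefm 31.2-fold higher (log2 4.96, SE 0.11). In long 2i against serum the fitted differences were 98.7-fold for Nefl (log2 6.63, SE 0.12) and 496-fold for Nefm (log2 8.96, SE 0.17). For Nefm the ratio of pooled CPM in long 2i over serum was 508, with an exact 95% counting interval of 276 to 1060, which covers counting error only. Without serum replicate 1, the serum library that held 7 of the 10 Nefm counts, the Nefm log2 differences against serum were 4.65 in first 2i, 9.61 in long 2i and 6.76 in second 2i.

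Nefh was highest in serum and lowest in long 2i. The gene for the heavy chain was at 20.8 and 21.9 CPM in serum, 9.73 and 9.5 in first 2i, 6.56 and 7.71 in long 2i, 17.3 and 20 after the return to serum, and 10.1 and 11.3 in second 2i. No groups overlapped, and the lowest library in serum stood above every library of the other groups. Nefh was 2.98-fold lower in long 2i than in serum (log2 -1.58, SE 0.12) and 2.22-fold lower in first 2i than in serum (log2 -1.15, SE 0.11).

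Per kilobase of principal transcript, the 3 chains took different shares of the neurofilament RNA in each culture. In serum, Nefh held 91.5 and 91.8% of the summed CPM per kb of the 3 genes, Nefl 6.71 and 7.46%, and Nefm 1.76 and 0.783%. In first 2i, Nefl held 75.7 and 77.1%, Nefh 15.8 and 15.6%, and Nefm 8.53 and 7.28%. In long 2i, Nefl held 49.7 and 51.7%, Nefm 48.3 and 45.9%, and Nefh 2.02 and 2.41%. In serum return, Nefh again held most of it, 87.3 and 85.2%. In second 2i Nefl held 70.1 and 71.7%, with Nefm at 20.4 and 18.3%. The sum itself was 81.4 and 80.3 CPM per kb in long 2i, against 5.7 and 5.99 CPM per kb in serum. Transcript lengths were 3.38 kb for Nefl, 3.33 kb for Nefm and 3.99 kb for Nefh. In the GENCODE vM21 annotation an alternative transcript of Nefm shares 1108 exon bases with Nefl on the opposite strand, 32.8% of the exon length of Nefl. No source used here gives the annotation or strand setting behind the counts, so reads of these bases could not be assigned with certainty.

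**Figure D1:**
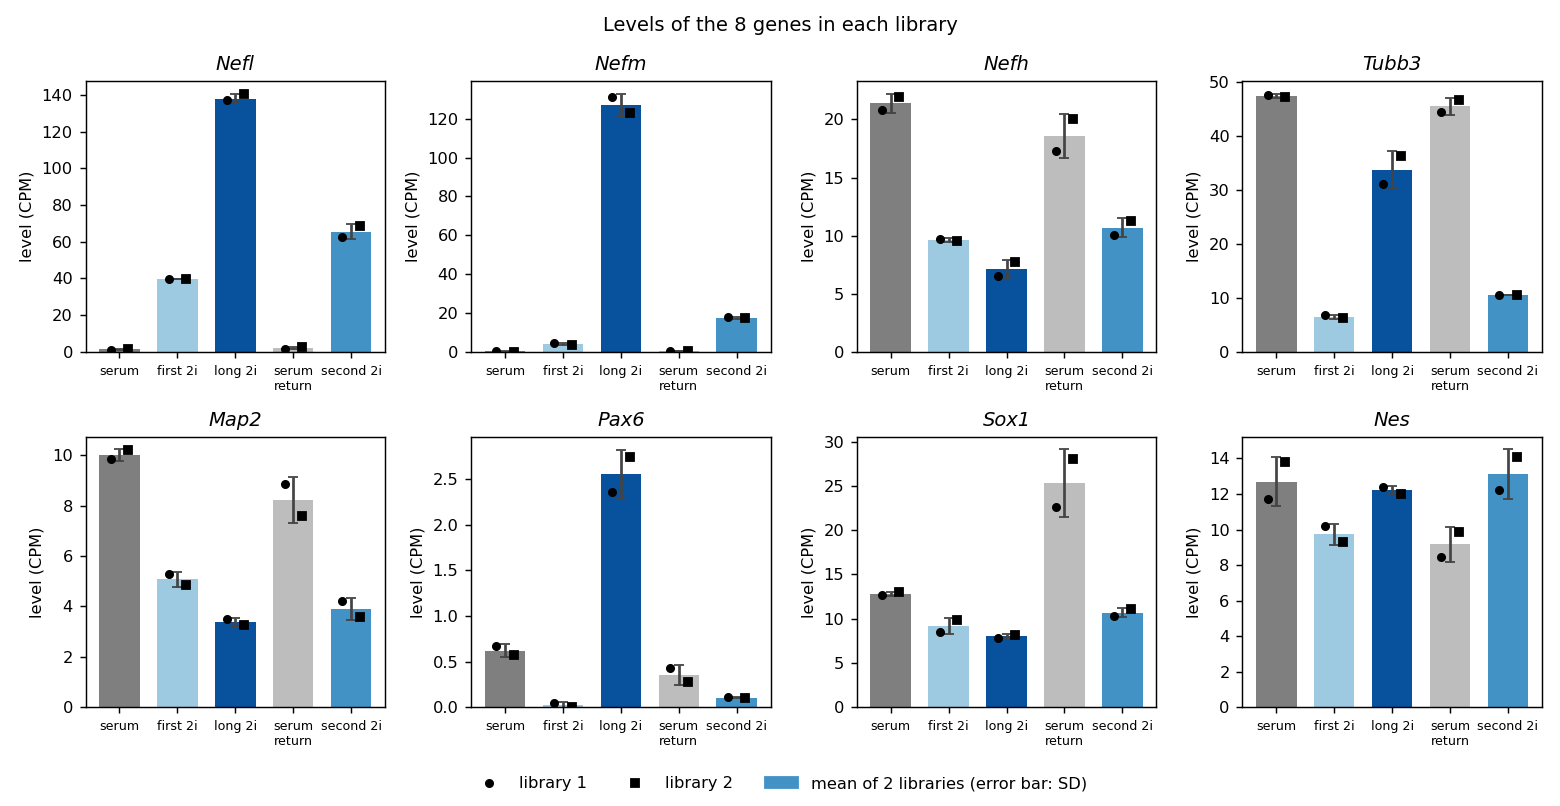
Level of each of the 8 genes (CPM, linear axes from 0, a scale of its own in each panel) in the 5 cultures in the order of the study; circles and squares are the libraries, bars the mean and error bars the SD (n = 2). Nefl, Nefm and Pax6 are highest in long 2i at 138, 127 and 2.55 CPM, Nefh, Tubb3 and Map2 are highest in serum, and Sox1 in serum return. Group means of Nes run from 9.16 CPM in serum return to 13.1 CPM in second 2i.

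**Figure D2:**
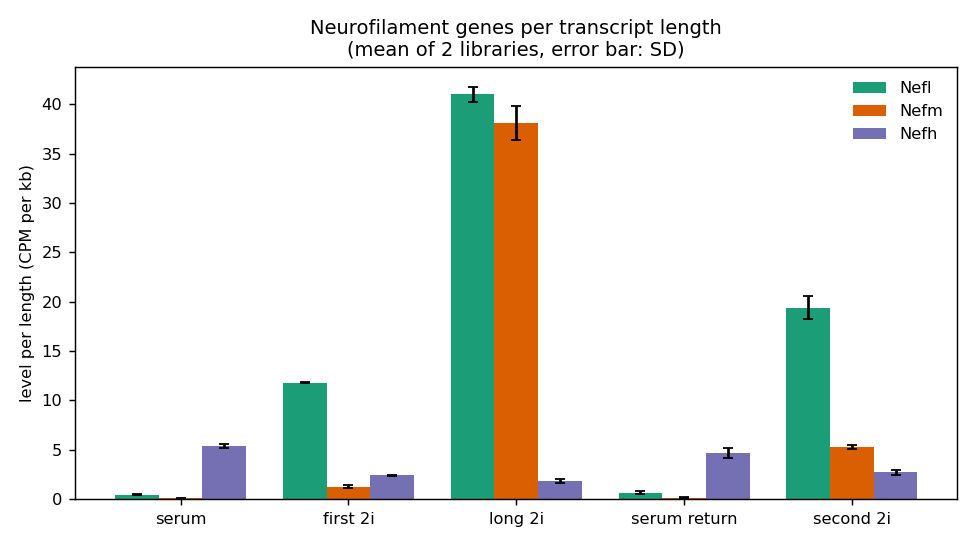
CPM per kilobase of principal transcript for Nefl, Nefm and Nefh in the 5 cultures (bars: mean of 2 libraries; error bars: SD). Nefl and Nefm stand at 41 and 38.1 CPM per kb in long 2i, where Nefh is at 1.79, and Nefh leads in serum at 5.36.

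The microtubule genes of neurons did not share the neurofilament order. Tubb3 was at 47.6 and 47.1 CPM in serum, 6.74 and 6.18 in first 2i, 31.1 and 36.2 in long 2i, 44.4 and 46.5 after the return to serum, and 10.5 in both second 2i libraries. No groups overlapped, so this tubulin gene was lowest in first 2i and second 2i and stood nearer to serum in long 2i. Tubb3 was 7.32-fold lower in first 2i than in serum (log2 -2.87, SE 0.1) and 5.21-fold higher in long 2i than in first 2i (log2 2.38, SE 0.1), which left it 1.4-fold lower in long 2i than in serum (log2 -0.49, SE 0.083). Map2 was at 9.85 and 10.2 CPM in serum, 5.29 and 4.87 in first 2i, 3.49 and 3.27 in long 2i, 8.86 and 7.58 after the return to serum, and 4.2 and 3.59 in second 2i. Every 2i group was below both serum groups, no groups overlapped, and long 2i was 2.96-fold below serum (log2 -1.57, SE 0.16).

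Pax6, Sox1 and Nes, the genes of neural progenitors, each had a pattern of their own. Pax6 had 14 and 11 counts in serum, 1 and 0 in first 2i, 40 and 52 in long 2i, 12 and 6 after the return to serum, and 2 in each second 2i library. In CPM it was at 2.36 and 2.74 in long 2i, against 0.67 and 0.573 in serum, a 4.08-fold difference (log2 2.03, SE 0.35). Against the single count of first 2i, the pooled ratio in long 2i was 108 with a counting interval of 18.8 to 4290. Even its highest level was small: per kb, long 2i held 0.89 CPM of Pax6 beside 18 CPM of Tubb3.

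Sox1 was at 12.7 and 13 CPM in serum, 8.51 and 9.84 in first 2i, 7.86 and 8.18 in long 2i, 22.6 and 28 after the return to serum, and 10.3 and 11.1 in second 2i. Serum return was the highest group, 1.96-fold above serum (log2 0.97, SE 0.11) and 3.13-fold above long 2i (log2 1.65, SE 0.12), and no groups overlapped. Nes was at 11.7 and 13.8 CPM in serum, 10.2 and 9.3 in first 2i, 12.4 and 12 in long 2i, 8.47 and 9.86 after the return to serum, and 12.2 and 14.1 in second 2i. Second 2i, serum and long 2i overlapped or lay within each other's range, as did first 2i and serum return, and long 2i and serum differed by a log2 value of -0.06 (SE 0.12).

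Promoters are shown for Tubb3 and Pax6, the neural markers whose level in long 2i stood furthest above first 2i, to give the sequence before their annotated starts. They come from RefSeq on GRCm38.p6, both genes on the plus strand, while the counts were made on mm9. Of the 8 genes, 5 had an entry in that set (Tubb3, Pax6, Sox1, Nes and Map2), and Nefl, Nefm and Nefh were not among them. Each line gives the 250 bases before a start, 5′ to 3′. Capitals mark matches on either strand to CCAAT, the GC box GGGCGG, the E-box CANNTG, or CAGCACC, one of the core stretches of the element bound by the repressor REST. The coordinates are chr8:123411303-123411552 for Tubb3, chr2:105668646-105668895 for the upstream start of Pax6 and chr2:105682213-105682462 for its downstream start.
Tubb3: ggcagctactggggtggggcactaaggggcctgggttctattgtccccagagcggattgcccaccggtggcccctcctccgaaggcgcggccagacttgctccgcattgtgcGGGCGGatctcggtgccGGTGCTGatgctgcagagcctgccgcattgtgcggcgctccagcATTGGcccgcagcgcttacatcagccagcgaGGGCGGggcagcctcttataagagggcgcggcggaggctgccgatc
Pax6, upstream start: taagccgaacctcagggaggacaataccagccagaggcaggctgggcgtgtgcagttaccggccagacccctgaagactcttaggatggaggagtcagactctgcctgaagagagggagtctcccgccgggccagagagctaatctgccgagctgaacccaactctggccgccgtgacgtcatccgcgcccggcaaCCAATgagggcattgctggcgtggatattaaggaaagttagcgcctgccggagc
Pax6, downstream start: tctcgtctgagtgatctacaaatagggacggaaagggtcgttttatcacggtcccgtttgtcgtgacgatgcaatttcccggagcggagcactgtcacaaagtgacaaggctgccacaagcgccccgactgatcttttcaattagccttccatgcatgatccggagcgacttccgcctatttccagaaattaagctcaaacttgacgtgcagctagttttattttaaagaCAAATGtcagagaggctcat

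Windows of 300 bases, from 250 before to 50 after each start, were searched on both strands. The Tubb3 window held 26 CG pairs and 67.3% G and C, and those of Pax6 held 18 CG pairs with 58.7% G and C (upstream) and 16 with 46.3% (downstream), beside a median of 7 CG pairs and 52.7% G and C over 32851 promoters. CCAAT occurred at position -77 of Tubb3 and -54 of the upstream Pax6 start, counted from the start, and in 37.4% of all windows. GGGCGG matched 2 times in Tubb3 and is found in 35.7% of all windows. CANNTG matched once, at -20 of the downstream Pax6 start, and 72.3% of all windows hold it. Tubb3 held both searched stretches of the REST element, CAGCACC at -121 (7.14% of all windows) and GGACAG at position 12, beyond the bases printed (22.2%). These were separate matches at distant positions, and the whole element was not searched for. CTTTGAT, a motif of the TCF/LEF factors that bind β-catenin (3.73%), and TATAAA (13.6%) had no match in the windows of the 5 genes. The marked matches do not overlap each other in the bases printed, and a match is a description of letters only.

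On return to serum, Nefl was 65.4-fold lower in serum return than in long 2i (log2 -6.03, SE 0.1) and Nefm 342-fold lower (log2 -8.42, SE 0.15). Against the starting serum culture, the log2 difference in serum return was 0.59 (SE 0.21) for Nefl, 0.54 (SE 0.49) for Nefm, -0.2 (SE 0.1) for Nefh, -0.06 (SE 0.079) for Tubb3, 0.97 (SE 0.11) for Sox1 and -0.77 (SE 0.47) for Pax6. With 1 library left out at a time, the value for Nefm reached 1.19 (without serum replicate 1), that for Sox1 1.13 and that for Pax6 -1.14 (both without serum return replicate 1). Both Nefl libraries of serum return were above both of serum, and those of Nefm were mixed. Map2 and Nes were lower in serum return than in serum, by -0.28 (SE 0.13) and -0.48 (SE 0.12) on the log2 scale.

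In second 2i the genes took the direction they had in first 2i, except for Nes, and Nefm stood higher than it had the first time. Second 2i against serum return gave log2 4.95 (SE 0.11) for Nefl, 5.56 (SE 0.19) for Nefm, -0.8 (SE 0.11) for Nefh, -2.11 (SE 0.094) for Tubb3, -1.24 (SE 0.12) for Sox1 and -1.09 (SE 0.15) for Map2. For Pax6 it was -1.7 (SE 0.71), on 4 counts in second 2i against 18 in serum return. Nes was higher by 0.53 (SE 0.12), where it had been lower by -0.39 (SE 0.12) in first 2i against serum. After a last stay in 2i of similar length, Nefm was 4.32-fold higher in second 2i than in first 2i (log2 2.11, SE 0.12), Nefl 1.65-fold (log2 0.72, SE 0.073) and Tubb3 1.63-fold (log2 0.7, SE 0.12). The second 2i culture had more passages in all and had been in 2i before, and the part of either was not tested. Second 2i stayed below long 2i for Nefm, 7.22-fold (log2 -2.85, SE 0.09), Tubb3, 3.2-fold (log2 -1.68, SE 0.097), and Nefl, 2.11-fold (log2 -1.08, SE 0.069). The second response minus the first was 0.13 (SE 0.23) for Nefl, 1.57 (SE 0.56) for Nefm, 0.76 (SE 0.14) for Tubb3 and -0.75 (SE 0.17) for Sox1 on the log2 scale. It was 0.36 (SE 0.16) for Nefh, 0.91 (SE 0.18) for Nes and -0.11 (SE 0.21) for Map2, and 2.69 (SE 1.4) for Pax6, which rests on 1 count in first 2i.

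Most genes in these libraries differed between cultures, which is the background for the 8. In long 2i against serum, 68.9% of tested genes were called at an adjusted p under 0.05, 35.1% higher and 33.9% lower, and of the 8 genes 3 were called higher and 4 lower. Long 2i against first 2i had 61.2% called (30.4% higher, 30.8% lower), with 5 of the 8 higher and 2 lower. First 2i against serum had 70% called (35.1% higher, 34.9% lower), with 2 of the 8 higher and 6 lower. Serum return against long 2i had 71.4% called (35.4% higher, 36% lower), with 4 higher and 4 lower. For serum return against serum the share was 31% (16.5% higher, 14.5% lower), with 2 of the 8 higher and 1 lower. Second 2i against serum return had 65.6% called (32.3% higher, 33.3% lower), with 3 higher and 5 lower. Second 2i against first 2i had 37.7% called (18.1% higher, 19.6% lower), with 4 higher and none lower. The share was 56.4% for second against long 2i (28.1% higher, 28.4% lower), with 2 higher and 4 lower, and 66.4% for second 2i against serum (33.6% higher, 32.8% lower), also with 2 higher and 4 lower. The difference of the responses to 2i passed for 39.4% of genes, 18.4% upward and 21% downward. Because the genes were chosen on these contrasts, nothing is read from these counts. The contrasts also share libraries.

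Neural genes outside the 8 were more often lower than higher against serum in each 2i group, not in long 2i alone. Of 88 genes in 5 lists, called neural genes here for short, 56 were tested. Of these, 17 rose and 33 fell in long 2i against serum, with a median log2 difference of -0.56 beside 0.01 over all genes. One list holds 8 intermediate filament genes, among them Vim, Des, Krt8 and Krt18, which are not particular to neural cells. The lists differed: the median was -1.73 for neuronal cytoskeleton genes, -0.1 for neural progenitor genes and 0.03 for synapse and transmitter genes. First 2i against serum had 18 higher and 31 lower (median -0.43), and second 2i against serum 15 higher and 31 lower (median -0.67). Against first 2i, 14 rose and 22 fell in long 2i (median -0.16, all genes 0). P-values here and below are from edgeR's quasi-likelihood test, adjusted by Benjamini-Hochberg over all genes tested.

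Among other intermediate filament genes, 6 of 8 fell and 1 rose in long 2i against serum. Ina, which encodes α-internexin, a partner of neurofilaments in axons, averaged 3.37 ± 0.68 CPM in long 2i and 8.87 ± 2.2 CPM in serum (log2 -1.38, adjusted p = 2.82e-06). Prph, which encodes peripherin of peripheral neurons, averaged 1.02 ± 0.19 CPM in long 2i and 11.3 ± 0.61 CPM in serum (log2 -3.44, adjusted p = 7.25e-12). Both were higher in long 2i than in first 2i, Ina by log2 1.02 (adjusted p = 0.00175) and Prph by 0.97 (adjusted p = 0.0317), a call that Prph lost in the fit of only the groups compared (0.0613), without first 2i replicate 1 (0.202) and without long 2i replicate 2 (0.208). Vim, the widely expressed vimentin gene, fell to 307 ± 9 CPM in long 2i against 423 ± 8.1 CPM in serum (log2 -0.46, adjusted p = 4.3e-08). Des, the desmin gene of muscle, fell by 2.05 on the log2 scale (adjusted p = 7.94e-14), and Sync, the syncoilin gene, rose by 1.67 (adjusted p = 4.18e-07). Sync was higher still in first 2i, at 8.29 ± 0.71 CPM against 5.1 ± 0.053 CPM in long 2i (log2 -0.7, adjusted p = 0.000629).

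Of 17 tested genes of neuronal microtubules, growth cones and axonal transport, 13 fell and 4 rose in long 2i against serum (median -1.73). Gap43, a growth cone gene, fell to 0.312 ± 0.14 CPM in long 2i against 10.6 ± 0.98 CPM in serum (log2 -5.08, adjusted p = 1.19e-12). Kif1a, an axonal transport kinesin, averaged 0.233 ± 0.26 CPM in long 2i and 6.59 ± 0.93 CPM in serum (log2 -4.84, adjusted p = 1.4e-09). Stmn2, a tubulin-binding stathmin of neurons, rose to 159.7 ± 0.13 CPM in long 2i against 6.45 ± 1.1 CPM in serum (log2 4.62, adjusted p = 2.77e-19). Unlike Nefm, it was higher still in first 2i, at 235 ± 7.8 CPM, so that long 2i was lower than first 2i (log2 -0.56, adjusted p = 2.58e-07). Kif5c, a kinesin heavy chain gene, rose in long 2i against serum (log2 1.07, adjusted p = 2.42e-08) and against first 2i (log2 1.79, adjusted p = 5.82e-11), to 19.3 ± 0.11 CPM. Crmp1, a growth cone gene, rose in long 2i against first 2i (log2 1.85, adjusted p = 0.000443) and fell against serum (log2 -2.83, adjusted p = 3.69e-10). Doublecortin (Dcx), a marker of young neurons, had 0 counts in all 10 libraries.

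Of 12 tested genes of neural progenitors, 6 rose and 5 fell in long 2i against serum. Sox2, a pluripotency factor that neural progenitors also use, fell to 393 ± 15 CPM in long 2i, against 793 ± 25 CPM in first 2i and 815 ± 1.2 CPM in serum (adjusted p = 2.29e-13 against first 2i and 3.51e-14 against serum). Sox21 rose to 44.5 ± 4.2 CPM in long 2i against 1.68 ± 0.21 CPM in serum (log2 4.73, adjusted p = 1.17e-16). It was higher still in first 2i, at 58.6 ± 6.6 CPM (long 2i against first 2i log2 -0.4, adjusted p = 0.000877). Gbx2 averaged 16.2 ± 1.9 CPM in long 2i, 4.17 ± 0.12 CPM in first 2i and 122 ± 7.5 CPM in serum, with adjusted p = 3.88e-11 against first 2i and 3.25e-17 against serum. Zfp521 and Prom1 fell in long 2i against first 2i, by 2.78 (adjusted p = 7.98e-13) and 2.46 (adjusted p = 1.73e-07) on the log2 scale.

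Of 9 tested genes of neuronal differentiation, 2 rose and 5 fell in long 2i against serum. Elavl3, an RNA-binding protein gene of neurons, fell to 1.24 ± 0.41 CPM in long 2i against 42.6 ± 2.3 CPM in serum (log2 -5.08, adjusted p = 9.25e-17). Rbfox3, which encodes the neuronal nuclear antigen NeuN, had 0 counts in long 2i and 44 in serum, at least 13.1-fold lower against a floor of 3 counts over the group (adjusted p = 2.68e-05). Pou4f1, a sensory neuron transcription factor, rose to 21.5 ± 0.57 CPM in long 2i against 8.36 ± 0.62 CPM in serum (log2 1.36, adjusted p = 3.55e-10). Isl1, a transcription factor gene of motor and sensory neurons, rose to 0.909 ± 0.28 CPM in long 2i against 0.226 ± 0.049 CPM in serum (log2 2, adjusted p = 0.002), on 33 counts against 9.

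Of 10 tested genes of synapses and transmitters, 4 rose and 4 fell in long 2i against serum. Gad1, which encodes the GABA-synthesising enzyme GAD67, rose to 10.9 ± 1.5 CPM in long 2i, against 0.929 ± 0.075 CPM in first 2i and 0.389 ± 0.33 CPM in serum (adjusted p = 3.18e-10 against first 2i and 1.69e-11 against serum). Its level was low again in second 2i, at 0.482 ± 0.011 CPM, where Nefm was at 17.6 ± 0.52 CPM. Gad2, which encodes the other GABA-synthesising enzyme, had 287 counts in first 2i, 2 in long 2i and none in serum. Chga, the chromogranin A gene, fell to 3.44 ± 0.24 CPM in long 2i against 19.4 ± 0.19 CPM in serum (log2 -2.5, adjusted p = 6.01e-13). Slc32a1, the vesicular GABA transporter gene, had 0 counts in long 2i and 70 in serum, at least 20.9-fold lower (adjusted p = 2.54e-06).

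**Figure D3:**
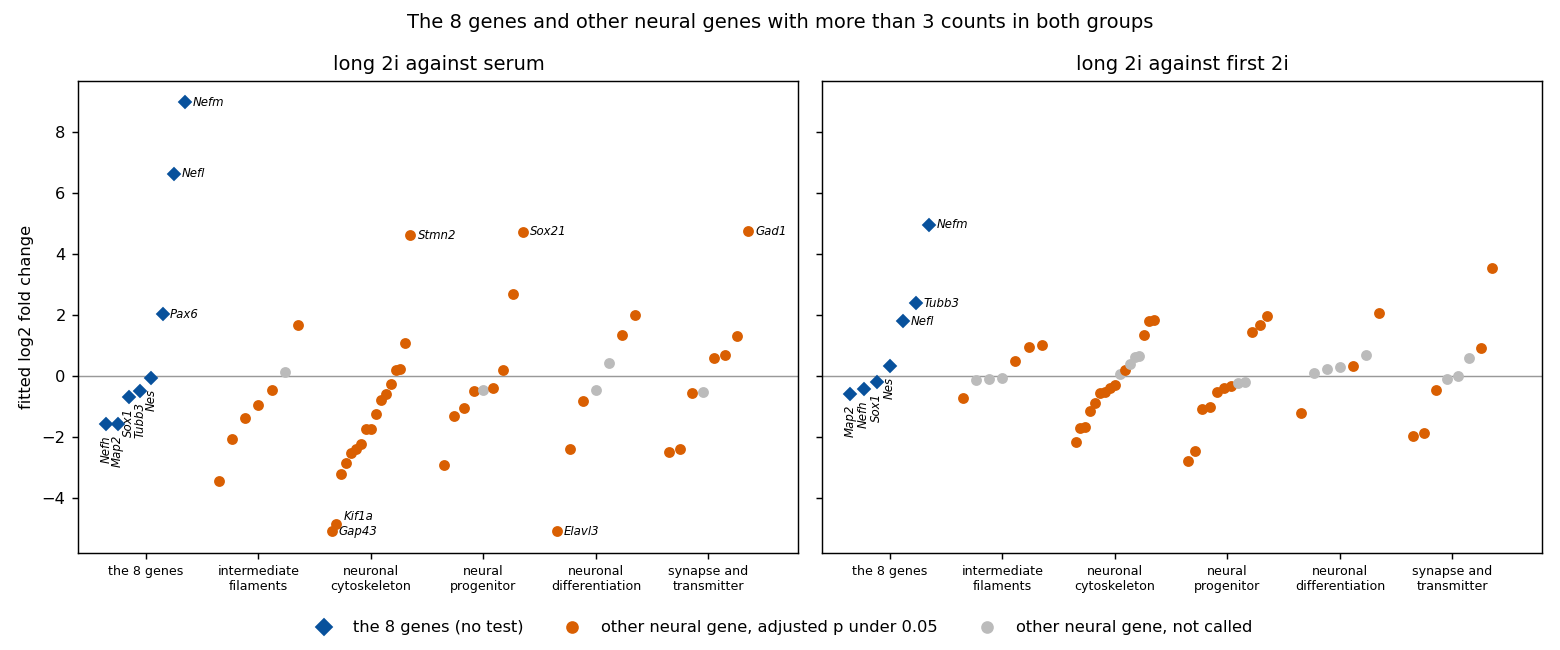
Fitted log2 fold change of the 8 genes (diamonds, no test) and of tested neural genes in 5 lists (circles, coloured where the adjusted p is under 0.05), in long 2i against serum and against first 2i, for genes with more than 3 counts in both groups; horizontal position within a list is rank only. Nefm (8.96) and Nefl (6.63) are the highest points against serum, Stmn2, Sox21 and Gad1 lie between 4.62 and 4.75, and Gap43 and Elavl3 are at -5.08.

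Rest encodes a repressor of neuronal genes outside the nervous system. It fell to 101 ± 8.9 CPM in long 2i, against 149 ± 12 CPM in first 2i and 137 ± 13 CPM in serum, a log2 difference of -0.56 against first 2i (adjusted p = 1.68e-06) and -0.44 against serum (adjusted p = 2.29e-05). Of 10 genes for REST and its corepressors, 1 rose and 5 fell in long 2i against serum. Rcor2, a partner of REST, fell to 61.9 ± 4 CPM in long 2i against 125 ± 8.7 CPM in serum (log2 -1.01, adjusted p = 5.76e-11), and Ehmt2, a histone methyltransferase gene, fell to 199 ± 22 CPM against 336 ± 26 CPM (log2 -0.75, adjusted p = 7.28e-07). Both were already below serum in first 2i, Rcor2 at 82.3 ± 4.3 CPM and Ehmt2 at 196 ± 11 CPM. Long 2i against first 2i gave log2 -0.41 for Rcor2 (adjusted p = 4.22e-05) and 0.03 for Ehmt2 (adjusted p = 0.793). In first 2i, where Nefl was already 28.3-fold above serum, Rest stood at 149 ± 12 CPM beside 137 ± 13 CPM in serum. Whether the level of Rest has a part in those of the neurofilament genes was not tested.

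Nefl and Nefm lie next to each other on chromosome 14, and their neighbours in the GRCm38.p6 gene order were looked at in the same libraries. Dock5, a guanine nucleotide exchange factor gene on the Nefl side, was at 36.2 and 39 CPM in serum, 84.6 and 84.5 in first 2i, 95.1 and 98.1 in long 2i, 36.7 and 36 after the return to serum, and 86.8 and 83.8 in second 2i. It rose in first 2i against serum (log2 1.17, adjusted p = 8.62e-13) and fell in serum return against long 2i (log2 -1.41, adjusted p = 2.8e-14). In long 2i against first 2i Dock5 was higher by log2 0.19 (adjusted p = 0.0075, and 0.061 without long 2i replicate 2), in the contrast in which Nefm was higher by 4.96. Further out on that side, Kctd9 rose in long 2i against serum by 0.55 (adjusted p = 5.61e-07) and Cdca2 fell by 0.42 (adjusted p = 4.18e-07), and Gnrh1, with 2 to 10 counts per library, was not tested. On the Nefm side, Adam7 had no counts, Adamdec1 and Adam28 had at most 2 per library, and Stc1 had 0 counts in long 2i against 34 in serum, at least 10.1-fold lower (adjusted p = 0.000164).

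**Figure D4:**
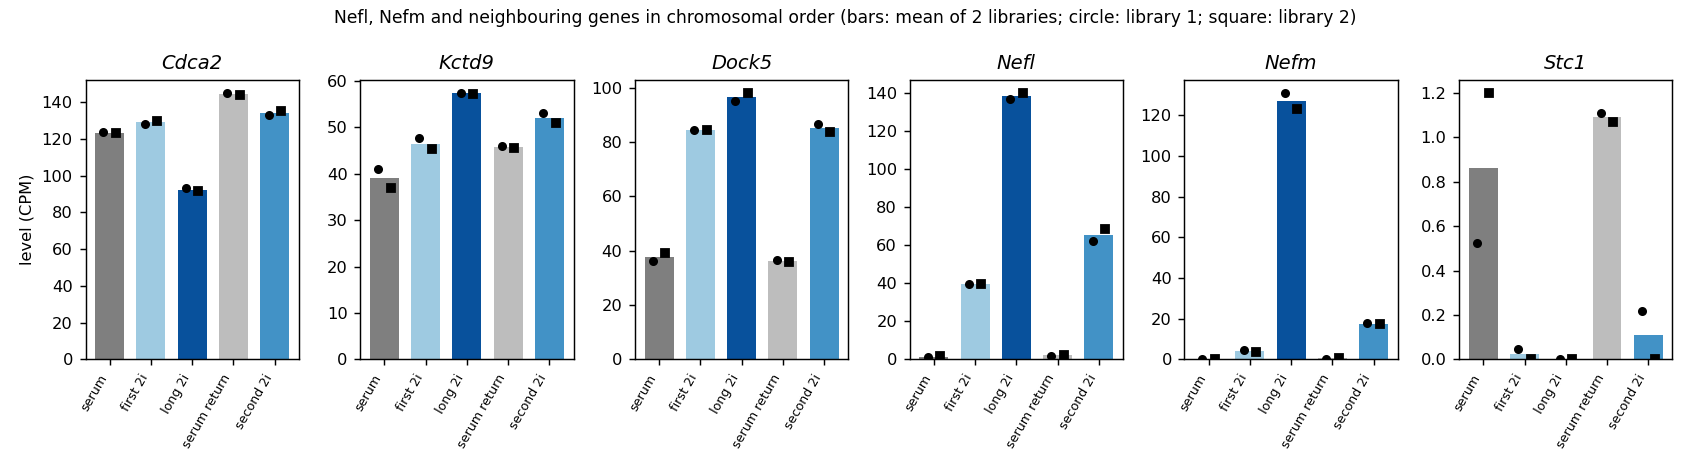
CPM of Nefl, Nefm and the tested genes among their neighbours, panels in chromosomal order and cultures in the order of the study (linear axes from 0; circles and squares are libraries, bars the mean of 2). Dock5 is at 84.5 to 98.1 CPM in first and long 2i, while Cdca2 and Kctd9 vary less and Stc1 is at 0 in long 2i.

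Over the 10 libraries, the genes whose log2 CPM was most like that of Nefl were Osm, Wnt5b, Ppp2r2c, Nrbp1 and Sh2d4b, with Pearson r of 0.997 to 0.992 among 10708 genes. For Nefm they were Tcta, Tmem208, Plekhg1, Slc38a6 and Ppp1r1a (r 0.993 to 0.99), and for Tubb3 Lin28a, Hsd17b14, Tmem258, Etv4 and Dhx29 (r 0.998 to 0.991). For Nefh they were Nt5dc2, Aif1l and Gmpr (r 0.995 to 0.993), and for Map2 Dlat, Tfpi and Chd9 (r 0.988 to 0.985). Pitpnb, Hnrnph2 and Mocs2 followed Pax6 (r 0.993 to 0.981), Hrk, Ubr2 and Clic4 followed Sox1 (r 0.981 to 0.973), and Asxl1, Lypla2 and Trip6 followed Nes (r 0.95 to 0.945). Among the 8, Nefl and Nefm had r = 0.955, Nefl and Nefh r = -0.965, Nefl and Map2 r = -0.983, and Nefl and Tubb3 r = -0.595. These values describe 5 cultures in pairs of libraries that fall into a serum and a 2i cluster, and they carry no test.

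Markers of other cells were measured in the same libraries. The 22 neuronal differentiation genes summed to 27 to 28 CPM in long 2i, against 22.5 to 23 CPM in first 2i and 57 to 59.5 CPM in serum. Without Elavl3, the highest of them in serum, the other 21 summed to 26.1 to 26.5 CPM in long 2i, against 21.3 to 21.9 CPM in first 2i and 15.3 to 16 CPM in serum, a sum computed after the data were seen. Pou4f1 made up most of this sum, at 21.5 CPM in long 2i, 17.1 in first 2i and 8.36 in serum. The higher sum in long 2i than in serum rested on that gene. The 12 glia and neural crest markers summed to 252 to 284 CPM in long 2i, against 275 to 289 CPM in first 2i and 196 to 240.2 CPM in serum. Of these, Ngfr was at 115 ± 7.3 CPM in long 2i and 71.5 ± 8.7 CPM in serum (adjusted p = 5.51e-07), while S100b had no counts in long 2i. Fibroblast markers summed to 10.3 to 11.4 CPM in long 2i and 31.4 to 34.5 CPM in serum, endoderm markers to 15.4 to 19.1 CPM in long 2i and 39.1 to 42.3 CPM in serum, and mesoderm markers to 22.5 to 25 CPM in long 2i and 16.5 to 17.9 CPM in serum. Of the endoderm markers, Sox7 was at 2.81 ± 0.8 CPM in long 2i and 35.3 ± 1.9 CPM in serum, and the other 8 summed to 13.2 to 15.7 CPM in long 2i and 5.17 to 5.63 CPM in serum, also computed after the data were seen. Dab2 rose to 8.52 ± 0.34 CPM in long 2i against 1.47 ± 0.054 CPM in serum (adjusted p = 3.01e-09) and Gata4 to 4.67 ± 1 CPM in long 2i against 1.28 ± 0.18 CPM in serum (adjusted p = 1.66e-06). Cubn fell to 0.244 ± 0.18 CPM in long 2i against 1.32 ± 0.096 CPM in serum (log2 -2.37, adjusted p = 0.000374). Among 6 tested endoderm markers, 2 rose, 2 fell and 2 were not called in long 2i against serum. Of 5 tested mesoderm markers, 2 rose, 1 fell and 2 were not called in long 2i against serum. Kdr rose to 5.05 ± 0.72 CPM in long 2i against 0.398 ± 0.046 CPM in serum (adjusted p = 2.34e-09), and brachyury (T) to 3.25 ± 0.25 CPM in long 2i against 0.0999 ± 0.0061 CPM in serum (adjusted p = 3.75e-09). Eomes, the highest of the mesoderm markers, was at 14.6 ± 1.5 CPM in long 2i and 14.7 ± 0.52 CPM in serum (log2 -0.02, adjusted p = 0.896). The 8 pluripotency markers summed to 4525 to 4553 CPM in long 2i, against 5723 to 5745 CPM in first 2i and 6003 to 6016 CPM in serum, and 7 of them fell in long 2i against first 2i. The part of these shifts in the levels of the 8 genes was not tested.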

How the data were processed

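RNA of 10 mouse embryonic stem cell cultures was sequenced. The authors deposited integer read counts for each gene, without normalization. The submitters' processing notes list build mm9, CASAVA 1.8.2, TopHat2 2.0.4, HTSeq 0.5.4p5 and an unversioned DESeq2. Annotation, strand setting and read layout: not given in the sources used here. The 5 summary rows were left out. Gene counts made up 51.16 to 54.81% of records and reads aligned to several places 33.41 to 36.51%, so genes with near-identical copies, such as tubulins and keratins, are uncertain.

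R 4.3.3 and edgeR 4.0.16 (limma 3.58.1) were used: filterByExpr by group (minimum count 10, minimum total 15), TMM, and a robust quasi-likelihood fit of the group over all 10 libraries with 5 residual degrees of freedom, two-sided, Benjamini-Hochberg adjusted over 14220 genes, threshold 0.05. The fit was checked on simulated counts. The 8 genes, the gene lists and the naming rule were chosen with earlier results of these data known. In each list the rule took, for long 2i against serum and against first 2i, the 3 called genes of largest fold change whose higher group averaged 1 CPM or more and whose library pairs all went 1 way, plus a few fixed genes. Dcx, Isl1 and S100b were named after their values were seen. Likeness used log2 CPM (prior count 2) of genes that averaged 5 CPM or more in some group. Lengths come from GENCODE vM21. Alternatives were RLE scaling, no filter, DESeq2 1.42.0, a fit of only the groups compared, a block for the title series, and each library left out in turn. A floor of 3 counts over a group is 0.0608 to 0.0837 CPM.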

Additional observations from a re-analysis of the deposited data

Results flagged for a closer look

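The response to 2i after a stay in serum differed from the first response for 16 named genes of the neural and REST lists, the 8 genes aside, by edgeR's test of the difference itself (second 2i minus serum return, less first 2i minus serum, log2 scale, adjusted over all genes), a test that 39.4% of all genes passed. The difference was positive for Crmp1 (2.7, adjusted p = 6.21e-05), Gbx2 (1.92, adjusted p = 4.34e-09), Ina (1.48, adjusted p = 0.000778), Elavl3 (1.37, adjusted p = 0.00037), Des (1.04, adjusted p = 5.76e-06), Rcor2 (1.04, adjusted p = 6.98e-08) and Ehmt2 (0.67, adjusted p = 0.00031). It was negative for Elavl4 (-1.96, adjusted p = 0.00123), Prom1 (-1.95, adjusted p = 0.00059), Stmn2 (-1.25, adjusted p = 5.08e-07), Vim (-0.62, adjusted p = 1.04e-06) and Rcor3 (-0.59, adjusted p = 0.000561). It was also negative for Gad1 (-1.68, adjusted p = 0.0471), Zfp521 (-0.54, adjusted p = 0.0403), Rest (-0.26, adjusted p = 0.0464) and Sox2 (-0.22, adjusted p = 0.0104). DESeq2 did not call Gad1 (0.057), Zfp521 (0.143) or Rest (0.0759), each of which also lost its call without some libraries, and Sox2 lost it without first 2i replicate 2 (0.068). Of the named markers of other cells and of pluripotency, 8 also passed. The difference was negative for Sox7 (-1.43, adjusted p = 0.00608), Aldh1l1 (-1.04, adjusted p = 1.11e-07), Eomes (-0.71, adjusted p = 0.000519) and Tdgf1 (-0.35, adjusted p = 0.00112). It was positive for Ngfr (0.59, adjusted p = 0.000854), Klf4 (0.48, adjusted p = 1.39e-05), Pou5f1 (0.36, adjusted p = 0.000286) and Esrrb (0.18, adjusted p = 0.0498). The alternatives were not run on the difference for these 8.

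Nes moved in opposite directions: both first 2i libraries were below both serum libraries, and both second 2i libraries were above both serum return libraries. Its second response minus its first was 0.91 (SE 0.18) on the log2 scale, and this difference was not tested.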

How the results depend on the processing

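Of 174 counts of called genes under the alternatives, 170 stayed within 1.5 times. With 1 library left out, the lone library of its group was assumed to vary like the other groups. The genes called in serum return against serum then numbered 2437 to 3333, against 4407 with all libraries. The lowest of these was without serum return replicate 1, and it was 2822 without serum replicate 2. The neural genes outside the 8 called in that comparison numbered 16 to 21, against 27, with 16 without serum return replicate 1. Genes called in second against first 2i numbered 3556 to 4218, against 5357, with 3556 without second 2i replicate 2. Of 645 values of the 8 genes 634 moved by less than the replicate spread. Another 11 moved by more when a library was left out, all of them Pax6 or Nefm against serum, and none that was called changed sign. For a left-out library the first result was nearly fixed in advance. Dropping 1 of 2 libraries shifts a group mean by less than that spread, low counts aside. DESeq2 moved Pax6 by at most 0.33 and the other 7 genes by at most 0.03 (log2). Of 1138 values of the other named genes, 36 lost their call, 2 gained one (Rbfox3 in long 2i against first 2i with no filter, 0.0458, and with the block, 0.0309) and none reversed. The lost calls were those of Prph, Kif1a and Dock5 in long 2i against first 2i, Zfp521 and Elavl4 in long 2i against serum, and Gad1, Rest, Sox2 and Zfp521 in the difference of the responses, and the cause was not tested.

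The title series, whose meaning is not given, was not used to pair libraries, and the main fit carried no term for it. Between groups, deviations from the group means correlated at 0.099 to 0.17, and 9 of 10 values passed 0.1. All were positive, so libraries of a series shared a small part of their deviations. With the title series as a replicate block, 10557 genes were called in long 2i against serum (9804 without it), 6172 in serum return against serum (4407), and 50 neural genes outside the 8 in long 2i against serum (50). Pax6 in first and second 2i and Nefm in serum rest on few counts, so their fold changes are imprecise at this depth.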
